A study of Drosophila melanogaster with 18 samples.

Results

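The voltage-gated ion channel genes described here are para, Sh, Shab, Shal, Shaw, slo, eag, sei, cac and Ca-alpha1D, which encode pore-forming subunits of sodium, potassium and calcium channels in Drosophila. Every probe set that the array annotation assigns to 1 of these 10 genes was taken and kept apart, which gives 19 of the 18769 probe sets tested. Sh has 7 probe sets, Shab, Shaw and cac have 2 each, and the other 6 genes have 1 each. The probe sets were taken by gene symbol and not by their values, but the genes were chosen with earlier results of these data known. None of the 19 carries a second gene symbol.

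Voltage-gated channels open when the membrane depolarises and let 1 kind of ion through. Sodium channels carry the upstroke of the action potential, potassium channels repolarise the membrane and set firing rate and spike width, and calcium channels couple the spike to transmitter release and to signaling inside the cell. In the fly several of these genes were first known from mutants that shake under ether or are paralysed by heat, and para, Sh, slo and cac produce many mRNA isoforms by alternative splicing and RNA editing.

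The samples are total RNA from the complete CNS of wandering larvae in the third instar, 20 larvae per array, hybridised to 18 Affymetrix Drosophila Genome 2.0 arrays, 3 for each of 6 genotypes. All genotypes carry the neuronal driver nSyb-Gal4, which is the whole genotype of the control (nSyb-Gal4/+). The others add UAS-TFAM3M (TFAM o/e), UAS-Pnt RNAi #JF02227 (Pnt RNAi), UAS-Aop RNAi #3166R1 (Aop RNAi), or TFAM3M with either hairpin (TFAM o/e, Pnt RNAi, or else TFAM o/e, Aop RNAi). TFAM is a mitochondrial DNA-binding protein whose overexpression served to disturb mitochondria, and Pnt and Aop are ETS transcription factors downstream of Ras-ERK signaling. The driver acts in neurons, while the RNA comes from the whole CNS with its glia and neuroblasts, and each transgene is represented by 1 line, so an effect of the insertion cannot be told apart from that of the gene. In such bulk RNA, fewer cells of a type and less RNA per cell cannot be told apart.

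Array medians lay between log2 5.03 and 5.56. Neuron markers (19 probe sets) had a mean log2 signal of 8.25 in the control, with 5 of them under log2 5, among them probe sets of VGlut and brp. Glia markers had a mean of 11.06 and neuroblast markers 8.63. Markers of tissue next to the CNS varied between the control arrays, from 8.97 to 10.03 for fat body, from 6.15 to 9.70 for ring gland and from 6.06 to 8.99 for salivary gland. Muscle markers ran from 4.918 to 5.946 on these arrays, haemocyte markers from 5.373 to 6.125 and testis markers from 4.185 to 5.764. The mean of the testis markers was 4.876 in the control and 3.191 (Aop RNAi) to 3.975 (TFAM o/e) in the other genotypes. That of the ring gland markers was 8.07 in the control and 8.91 to 9.47 in the others, and that of fat body 9.49 against 9.88 to 10.66. Salivary gland means ran from 7.19 (TFAM o/e, Aop RNAi) to 8.72 (TFAM o/e). Muscle means ran from 5.36 (TFAM o/e) to 5.72 (Pnt RNAi), and haemocyte means from 5.74 (TFAM o/e) to 6.27 (TFAM o/e, Aop RNAi). The part of such tissue in the channel values was not tested. For TFAM the control gave a log2 signal of 10.58 ± 0.15 and TFAM o/e 12.08 ± 0.04 (SD, n = 3 each). For pnt the control gave 8.44 ± 0.42 and the Pnt RNAi label 9.49 ± 0.16 (SD, n = 3 each), against the direction of a knock-down. For aop the control gave 10.68 ± 0.05 and the Aop RNAi label 10.70 ± 0.19 (SD, n = 3 each). Where the hairpins lie relative to these probe sets is not known here, so Pnt RNAi and Aop RNAi stand below for arrays labelled so, and each direction given for them rests on the labels.

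All values are log2 signals of the MAS5.0 algorithm. A fold change is a difference of log2 means, with the standard error (SE), the 95% interval and the adjusted p of limma, where 0.05 is the threshold. A signal depends on the probes as well as on the RNA, so each probe set is compared with itself across genotypes and never with another. Signals under about log2 5 are noisy, and each array had between 46.4% and 49.7% of its signals there. Of the 19 channel probe sets, 10 had a mean over all arrays of at least log2 6. These belong to para, Sh (4 probe sets), Shal, Shaw, sei, cac and Ca-alpha1D. The other 9 were dimmer, and Shab, slo and eag had no probe set above that level.

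No channel gene differed between genotypes past the threshold. In limma, 0 of the 19 probe sets had an adjusted p under 0.05 for any difference among the 6 genotypes (lowest adjusted p = 0.753), against 0.783% of all probe sets, and 1 of 19 had an unadjusted p under 0.05, against 6.49%. The same count was 0 of 19 for TFAM o/e against control (0.181% of all probe sets), for Pnt RNAi against control (0.293%) and for Aop RNAi against control (0.176%). It was also 0 of 19 for TFAM o/e, Pnt RNAi against control (0.325%) and for TFAM o/e, Aop RNAi against control (0.229%). Adding a hairpin to TFAM o/e gave 0 of 19 for Pnt RNAi (0.16%) and for Aop RNAi (0.0959%). Adding TFAM o/e gave 0 of 19 in the Pnt RNAi background (0.139%) and in the Aop RNAi background (0.208%). With shares this small in the background, a count of 0 in 19 does not set the channels apart from other genes.

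Across these 9 comparisons there are 171 pairs of a channel probe set and a comparison, and 6 of them had an unadjusted limma p under 0.05. Shal accounted for 3 of these, with 1 of 19 probe sets in TFAM o/e against control (5.53% of all probe sets), 1 of 19 in TFAM o/e, Pnt RNAi against control (8.49%) and 1 of 19 in TFAM o/e, Aop RNAi against TFAM o/e (3.41%). Sh and Shaw gave 2 of 19 in Aop RNAi against control (5.73%), and Shaw gave 1 of 19 in TFAM o/e, Aop RNAi against Aop RNAi (4.42%). The count was 0 of 19 in Pnt RNAi against control (7.24%), in TFAM o/e, Aop RNAi against control (6.11%), in TFAM o/e, Pnt RNAi against TFAM o/e (4.6%) and in TFAM o/e, Pnt RNAi against Pnt RNAi (6.26%).

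With a fold change of 1.5 as well, 4 pairs were left. In Aop RNAi against control 2 of 19 passed both (4.43% of all probe sets), and these were 1 probe set each of Sh and Shaw. In TFAM o/e, Aop RNAi against TFAM o/e 1 of 19 passed (2.77%), which was Shal, and in TFAM o/e, Aop RNAi against Aop RNAi 1 of 19 passed (3.39%), which was the same Shaw probe set. The other 6 comparisons had 0 of 19. The background there was 4.1% for TFAM o/e, 4.93% for Pnt RNAi, 5.68% for TFAM o/e, Pnt RNAi and 4.49% for TFAM o/e, Aop RNAi, all against control, and 3.75% and 3.85% for TFAM o/e, Pnt RNAi against TFAM o/e and against Pnt RNAi. The unpaired analysis of variance named in the study's methods was run at its thresholds of an unadjusted p under 0.05 and 1.5-fold. It passed Shal in TFAM o/e against control (2.68% of all probe sets) and in TFAM o/e, Aop RNAi against TFAM o/e (2.59%). It passed 0 of 19 in the other 7 comparisons (2.62% to 3.48%). After Benjamini-Hochberg adjustment it passed 0 of 19 in all 9. At most 2 of the 18769 probe sets tested passed in any of them, so this count does not set the channels apart.

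Arrays of 2 genotypes without any overlap were met by few channel probe sets. Shal gave 1 of 19 in TFAM o/e against control (8.86% of all probe sets), in TFAM o/e, Aop RNAi against TFAM o/e (7.41%) and in TFAM o/e, Pnt RNAi against Pnt RNAi (14.5%). Shaw gave 1 of 19 in Pnt RNAi against control (13.2%) and in Aop RNAi against control (8.59%), and Shal and Shaw gave 2 of 19 in TFAM o/e, Pnt RNAi against control (11.7%). In TFAM o/e, Aop RNAi against Aop RNAi para, Shaw and Shal gave 3 of 19 (8.22%). The count was 0 of 19 in TFAM o/e, Aop RNAi against control (9.01%) and in TFAM o/e, Pnt RNAi against TFAM o/e (9.53%).

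The para gene encodes the voltage-gated sodium channel that fly neurons use for action potentials. Its probe set, 1627300_at, gave log2 signals of 6.66, 7.06 and 6.18 in the control, 6.64, 6.06 and 6.14 in TFAM o/e, 6.26, 6.89 and 6.12 in Pnt RNAi, and 6.40, 7.38 and 6.42 in Aop RNAi. With both transgenes it gave 6.46, 6.71 and 6.24 (TFAM o/e, Pnt RNAi) and 6.28, 6.39 and 6.33 (TFAM o/e, Aop RNAi). The second array of Aop RNAi was the highest of the 18, and the arrays overlapped in each of the 9 comparisons except TFAM o/e, Aop RNAi against Aop RNAi, where 6.39 lay just under 6.40 (log2 fold change -0.40, limma adjusted p = 1). The genotype means ran from 6.28 ± 0.31 (SD, n = 3) in TFAM o/e to 6.73 ± 0.56 (SD, n = 3) in Aop RNAi, a spread no larger than the range within the control. The log2 fold change of para in TFAM o/e against control was -0.35, and in 7 of the 9 comparisons its 95% interval lay within 2-fold in both directions.

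**Figure D1:**
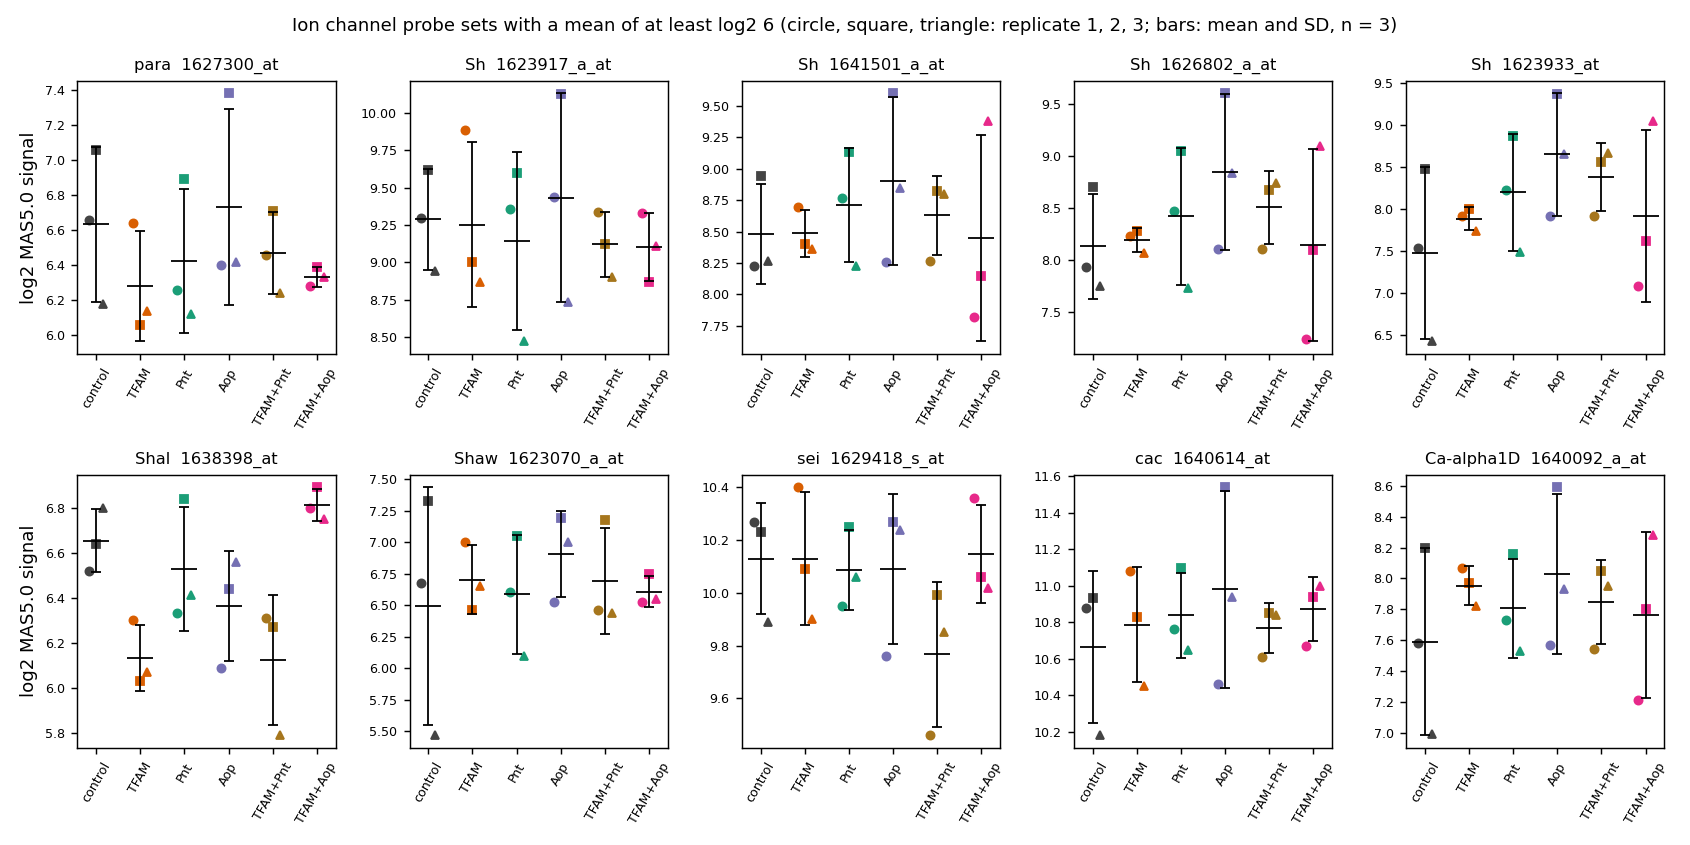
Log2 MAS5.0 signal (vertical axes, each with its own range) of the 10 channel probe sets with a mean of at least log2 6, by genotype (TFAM stands for TFAM o/e, Pnt for Pnt RNAi, Aop for Aop RNAi); points are arrays, with circles, squares and triangles for replicates 1, 2 and 3, and bars give the mean and SD of 3 arrays. The square of Aop RNAi is the highest point for para, Sh, cac and Ca-alpha1D, while Shal (bottom left) has its highest mean in TFAM o/e, Aop RNAi (6.81) and its lowest in TFAM o/e, Pnt RNAi (6.12).

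Sh (Shaker) encodes a fast inactivating A-type potassium channel of axons and nerve terminals. Its probe set with the highest mean, 1623917_a_at, had log2 signals of 9.29 ± 0.34 in the control, 9.25 ± 0.56 in TFAM o/e, 9.14 ± 0.60 in Pnt RNAi, 9.43 ± 0.70 in Aop RNAi, 9.12 ± 0.22 in TFAM o/e, Pnt RNAi and 9.10 ± 0.23 in TFAM o/e, Aop RNAi (SD, n = 3 each). Its genotype means spanned 0.33, less than the SD of several genotypes. The other 3 Sh probe sets with a mean of at least log2 6 had their highest mean in Aop RNAi as well, and their genotype means spanned 0.45 (1641501_a_at), 0.72 (1626802_a_at) and 1.17 (1623933_at).

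The Sh probe set 1623933_at is 1 of the pairs past an unadjusted p. Its signals were 7.54, 8.47 and 6.43 in the control and 7.92, 9.37 and 8.65 in Aop RNAi. The remaining genotypes gave 7.92, 8.00 and 7.74 (TFAM o/e), 8.23, 8.87 and 7.49 (Pnt RNAi), 7.92, 8.56 and 8.66 (TFAM o/e, Pnt RNAi) and 7.08, 7.62 and 9.05 (TFAM o/e, Aop RNAi). The second control array lay above the lowest Aop RNAi array, so the groups overlapped. The log2 fold change in Aop RNAi against control was 1.17 (SE 0.50, unadjusted p = 0.0322, limma adjusted p = 0.82). It was 0.64 without the third control array, 0.81 without the second Aop RNAi array and 0.28 without both. The probe set whose signal followed it most closely over the 18 arrays, out of 7472 with 1 gene symbol and a mean of at least log2 6, was another of Sh (1626802_a_at, Pearson r = 0.936), followed by lola (r = 0.931) and Ca-alpha1D (r = 0.912), all measured in the same RNA. With genotype means removed, r was 0.943 for 1626802_a_at and 0.964 for Ca-alpha1D, so these 2 likenesses do not need a difference between genotypes.

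The 3 dim Sh probe sets (1639174_at, 1632879_at and 1640193_at) had means over all arrays of 4.57, 4.43 and 3.81. They reached log2 5 on 7, 3 and 2 of the 18 arrays. The lowest signal of 1639174_at was 1.76, in the third control array, and that array lowered the control mean to 3.92 ± 1.92 (SD, n = 3). The 7 Sh probe sets therefore do not give 1 common order of genotypes, and no Sh probe set passed the threshold.

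Shal encodes the A-type potassium channel of cell bodies and dendrites, the fly member of the Kv4 family. Its signals were 6.52, 6.64 and 6.80 in the control and 6.30, 6.03 and 6.07 in TFAM o/e, so every control array lay above every TFAM o/e array. They were 6.33, 6.84 and 6.41 in Pnt RNAi and 6.31, 6.27 and 5.79 in TFAM o/e, Pnt RNAi. They were 6.09, 6.44 and 6.56 in Aop RNAi and 6.80, 6.89 and 6.75 in TFAM o/e, Aop RNAi, the genotype with the highest mean and the smallest spread.

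For Shal, the log2 fold change was -0.52 (SE 0.24, 95% interval -1.02 to -0.02, limma adjusted p = 0.874) in TFAM o/e against control. In TFAM o/e, Pnt RNAi against control it was -0.53 (SE 0.24, limma adjusted p = 0.572), and the addition of Pnt RNAi to TFAM o/e left the mean at 6.12 ± 0.29 against 6.13 ± 0.15 (SD, n = 3 each). In TFAM o/e, Aop RNAi against TFAM o/e it was 0.68 (SE 0.24, 95% interval 0.18 to 1.18, unadjusted p = 0.00988, limma adjusted p = 0.997), with no overlap between the arrays, and 0.63 to 0.76 when any 1 of the 18 arrays was left out. Shal had the lowest p of the 19 for any difference among genotypes (unadjusted p = 0.0471, limma adjusted p = 0.753). The signals most like that of Shal over the 18 arrays were those of CG10366 (Pearson r = 0.692), Dcps (r = 0.673) and Noc2 (r = 0.659).

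Shaw encodes a potassium channel with little inactivation that opens over a wide voltage range. Its brighter probe set, 1623070_a_at, had log2 signals of 6.49 ± 0.94 in the control, 6.70 ± 0.27 in TFAM o/e, 6.59 ± 0.47 in Pnt RNAi, 6.91 ± 0.34 in Aop RNAi, 6.69 ± 0.42 in TFAM o/e, Pnt RNAi and 6.61 ± 0.12 in TFAM o/e, Aop RNAi (SD, n = 3 each). The wide control group ran from 5.47 in the third array to 7.33 in the second, and covered the arrays of all other genotypes.

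The second probe set of Shaw, 1632961_at, was dim, with a mean of 4.57. Its signals were 4.18, 4.53 and 3.09 in the control, 5.16, 4.44 and 4.04 in TFAM o/e, 4.56, 5.28 and 4.88 in Pnt RNAi, and 4.85, 5.78 and 4.87 in Aop RNAi. They were 4.78, 5.19 and 4.93 in TFAM o/e, Pnt RNAi and 3.59, 3.34 and 4.76 in TFAM o/e, Aop RNAi. All Aop RNAi, Pnt RNAi and TFAM o/e, Pnt RNAi arrays lay above all control arrays. The log2 fold change was 1.23 (SE 0.51, limma adjusted p = 0.77) in Aop RNAi against control and -1.27 (SE 0.51, limma adjusted p = 0.957) in TFAM o/e, Aop RNAi against Aop RNAi. The first was 0.81 without the third control array, 0.51 without that array and the second of Aop RNAi, and 0.26 when signals under log2 5 were set to log2 5. The second was -0.26 with that floor. The bright probe set of Shaw had a log2 fold change of 0.41 in the first comparison and -0.30 in the second. The signals most like that of 1632961_at were those of gfzf (Pearson r = 0.844), lola (r = 0.839) and mask (r = 0.828) over the 18 arrays. These r values include the spread of arrays within genotypes, and 1632961_at reached log2 5 on 4 of the 18 arrays.

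Shab encodes a delayed rectifier potassium channel of the Kv2 family. Its brighter probe set, 1638535_a_at, had log2 signals of 5.00 ± 0.18 in the control, 4.46 ± 0.88 in TFAM o/e, 5.13 ± 0.21 in Pnt RNAi, 4.84 ± 0.27 in Aop RNAi, 4.83 ± 0.59 in TFAM o/e, Pnt RNAi and 5.11 ± 0.55 in TFAM o/e, Aop RNAi (SD, n = 3 each). The other, 1633404_at, had a mean of 4.02 and ran from 1.85 to 5.26. For neither probe set did the 95% interval lie within 2-fold in any of the 9 comparisons, so a change of that size was not excluded for Shab.

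The eag gene encodes a slowly gating potassium channel, the founder of the ether-a-go-go family, and sei (seizure) encodes its ERG-type relative. The eag probe set was under log2 5 on all 18 arrays. Its log2 signals were 3.07 ± 0.57 in the control, 2.32 ± 0.32 in TFAM o/e, 2.56 ± 1.12 in Pnt RNAi, 2.26 ± 0.63 in Aop RNAi, 3.40 ± 1.16 in TFAM o/e, Pnt RNAi and 2.38 ± 0.68 in TFAM o/e, Aop RNAi (SD, n = 3 each), and these values carry little information on eag.

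The sei probe set was bright and even. Its log2 signals were 10.13 ± 0.21 in the control, 10.13 ± 0.25 in TFAM o/e, 10.09 ± 0.15 in Pnt RNAi, 10.09 ± 0.29 in Aop RNAi, 9.77 ± 0.28 in TFAM o/e, Pnt RNAi and 10.15 ± 0.19 in TFAM o/e, Aop RNAi (SD, n = 3 each). The largest log2 fold change of the 9 comparisons, -0.36 in TFAM o/e, Pnt RNAi against control and against TFAM o/e, did not pass in either (limma adjusted p = 0.602 and 1). The 95% intervals of sei ran from -0.74 to 0.44 over the 9 comparisons, and a change of 2-fold lies outside each of them. The suffix of this probe set (1629418_s_at) marks probes that can match more than 1 transcript or gene, so part of the signal may come from elsewhere.

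The slo gene encodes the large-conductance potassium channel that opens on depolarisation and calcium. Its log2 signals were 4.73 ± 0.54 in the control, 5.34 ± 0.23 in TFAM o/e, 5.21 ± 0.52 in Pnt RNAi, 5.25 ± 0.50 in Aop RNAi, 4.88 ± 0.56 in TFAM o/e, Pnt RNAi and 5.23 ± 0.25 in TFAM o/e, Aop RNAi (SD, n = 3 each). The lowest of the 18 arrays, at 4.11, was the third of the control, and the arrays of the control and TFAM o/e overlapped.

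The calcium channel gene cac (cacophony) encodes the pore-forming subunit at presynaptic active zones. Its bright probe set, 1640614_at, had log2 signals of 10.66 ± 0.42 in the control, 10.79 ± 0.32 in TFAM o/e, 10.84 ± 0.23 in Pnt RNAi, 10.98 ± 0.54 in Aop RNAi, 10.77 ± 0.14 in TFAM o/e, Pnt RNAi and 10.87 ± 0.18 in TFAM o/e, Aop RNAi (SD, n = 3 each). Its log2 fold changes in the 9 comparisons ran from -0.11 to 0.32, and the 95% intervals from -0.62 to 0.82, so that a 2-fold change lies outside every interval. The dim probe set of cac, 1640033_at, gave 5.82, 5.98 and 2.80 in the control and 5.15, 6.94 and 5.44 in Aop RNAi, and none of its intervals was that narrow.

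Ca-alpha1D encodes an L-type calcium channel of cell bodies and dendrites, and of muscle. Its log2 signals were 7.59 ± 0.60 in the control, 7.95 ± 0.13 in TFAM o/e, 7.81 ± 0.32 in Pnt RNAi, 8.03 ± 0.52 in Aop RNAi, 7.85 ± 0.27 in TFAM o/e, Pnt RNAi and 7.76 ± 0.54 in TFAM o/e, Aop RNAi (SD, n = 3 each). The control arrays were 7.58, 8.20 and 6.99, and their range covered nearly all other arrays. In 7 of the 9 comparisons its 95% interval lay within 2-fold.

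**Figure D2:**
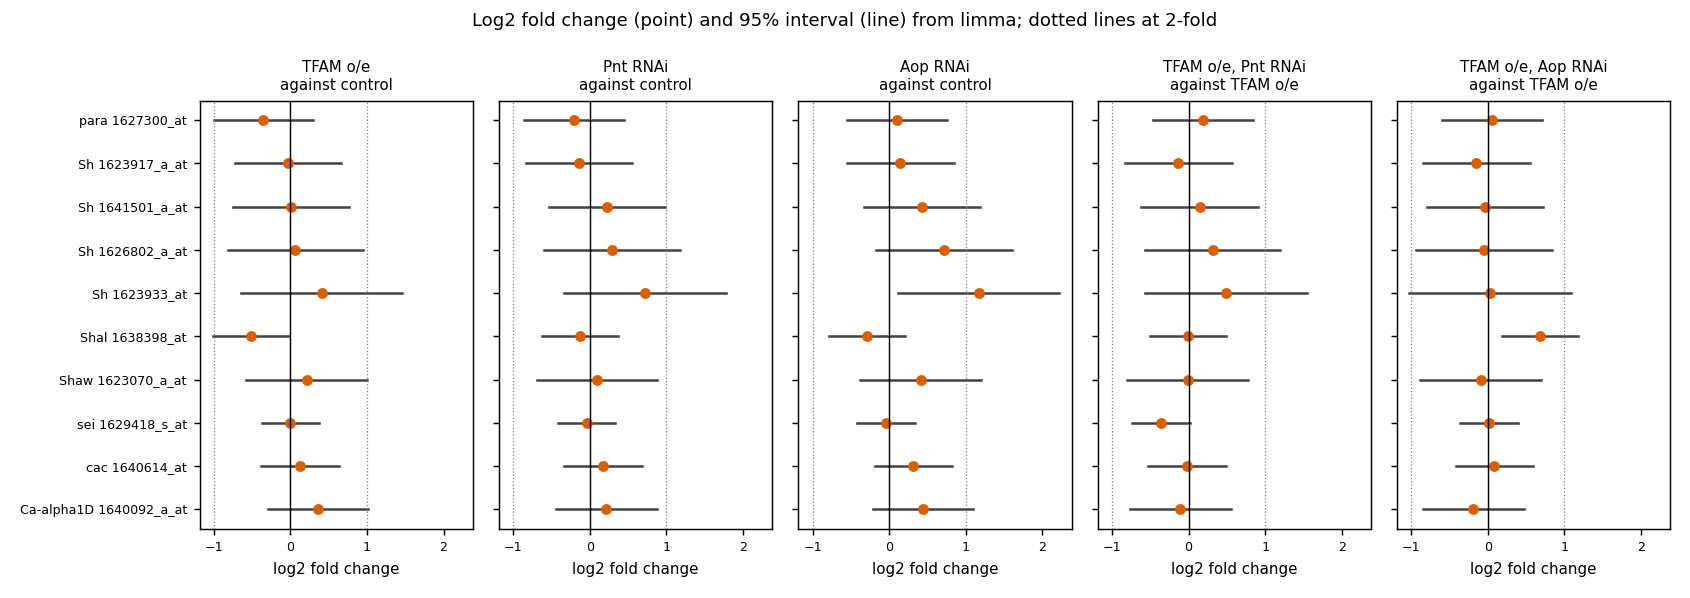
Log2 fold change (horizontal axes; points) with its 95% interval from limma (lines) for the 10 channel probe sets with a mean of at least log2 6, in 5 comparisons; dotted lines mark 2-fold. The interval of Sh 1623933_at in Aop RNAi against control and those of Shal in TFAM o/e against control (-1.02 to -0.02) and in TFAM o/e, Aop RNAi against TFAM o/e (0.18 to 1.18) leave out 0, and those of sei are the shortest.

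Within genotypes many channel probe sets were high or low on the same array, and 2 arrays stand furthest apart. The second array of Aop RNAi was the highest of the 18 for 13 of the 19 channel probe sets and above its genotype mean for 19 of 19, with a median deviation of 0.70 on the log2 scale. The third control array was the lowest for 8 of the 19 and below its genotype mean for 16 of 19, with a median deviation of -0.60. For all 18769 probe sets the median deviations of these arrays were 0.02 (9904 above the genotype mean) and 0.00 (9254 below). For the 19 neuron markers they were 0.26 (15 above) and -0.20 (16 below). Of the 19 channel probe sets 7 belong to Sh. The shares of all probe sets with their highest or lowest signal on these arrays were not counted. The second array of Pnt RNAi was above its genotype mean for 19 of 19 as well, with a median of 0.39. On that array 10766 of all 18769 probe sets (median 0.05) and 16 of the 19 neuron markers (median 0.19) were above it too. Over the 19 channel probe sets, further medians were -0.46 in the first of Aop RNAi (18 of 19 below), 0.46 in the second of the control (16 of 19 above) and 0.45 in the third of TFAM o/e, Aop RNAi (15 of 19 above). In the same order, the 10 brighter ones had medians of -0.42, 0.44 and 0.07, so the last array stood out mainly in the dim ones. All 18769 probe sets had -0.06 (10454 below), 0.04 (10138 above) and 0.05 (10439 above). The neuron markers had -0.03, 0.29 and 0.19. Among the 10 brighter channel probe sets, 8 had a within-genotype SD above the median of probe sets within 0.5 of their level, and para and Shal did not.

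The array carries probe sets for the 5′ and 3′ ends of actin, GAPDH and eIF-4a. The mean difference of 3′ minus 5′ log2 signal was 3.19 in the third control array, the highest of all, and 0.99 to 2.14 in the other 17 arrays. In the second Aop RNAi array it was 1.11, the second lowest, and in the first control array, with channel values near its genotype mean, 0.99, the lowest. The part of this difference in the channel values was not tested. With it as a covariate, 0 of the 19 probe sets passed in limma. Of all probe sets, 45 passed in TFAM o/e against control, 93 in Pnt RNAi against control and 46 in Aop RNAi against control.

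**Figure D3:**
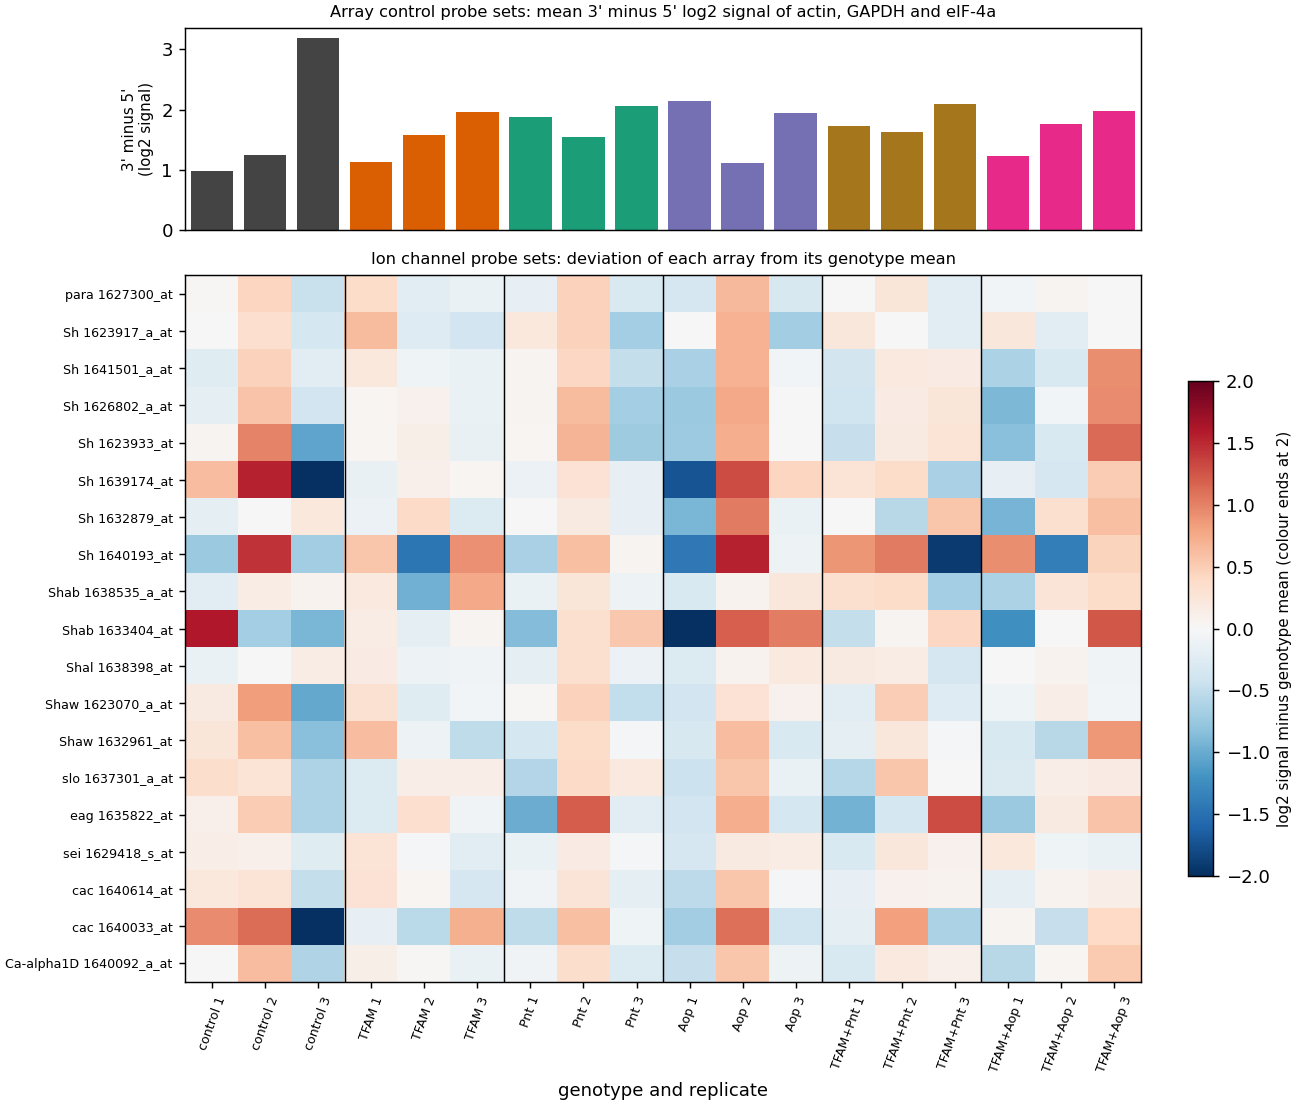
Top, mean 3′ minus 5′ log2 signal of the actin, GAPDH and eIF-4a control probe sets on each of the 18 arrays (bars, from 0). Bottom, log2 signal of each of the 19 channel probe sets (rows) minus its genotype mean for the same arrays (columns; red above and blue below, colour ends at 2 on either side). The column of the second Aop RNAi array is red for 19 of 19 probe sets, and that of the third control array is blue for 16 of 19, below the highest bar (3.19).

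These arrays bear on the shift of the channels as a group. Against control, the median log2 fold change of the 19 probe sets was 0.12 in TFAM o/e, 0.22 in Pnt RNAi, 0.42 in Aop RNAi, 0.24 in TFAM o/e, Pnt RNAi and 0.16 in TFAM o/e, Aop RNAi. The same medians over all probe sets were -0.03, -0.01, 0.02, -0.01 and -0.02, and over the neuron markers 0.11, 0.14, 0.18, 0.11 and 0.02. All 5 comparisons share the control arrays. In the channel medians each probe set counts once, so Sh counts 7 times, and 9 of the 19 had a mean under log2 6. Without the third control array the channel medians were -0.12, -0.06, -0.03, -0.11 and -0.13 in the same order, and without the second Aop RNAi array too the median in Aop RNAi was -0.24. With any 1 of the 18 arrays left out, the highest medians were 0.35, 0.46, 0.67, 0.56 and 0.31, and with the 3′ minus 5′ difference as a covariate they were 0, 0.23, 0.41, 0.25 and 0.12. All 5 medians turned negative without the third control array, and the last of them was also -0.085 without the third array of TFAM o/e, Aop RNAi.

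Comparisons that do not use the control gave channel medians of 0.14 when Pnt RNAi was added to TFAM o/e and -0.04 when Aop RNAi was added. When TFAM o/e was added they were 0.04 in the Pnt RNAi background and -0.27 in the Aop RNAi background. Each of the 4 changed sign when single arrays were left out, with ranges of -0.06 to 0.25, -0.19 to 0.09, -0.17 to 0.22 and -0.50 to 0.11, and the last turned without the second Aop RNAi array. By genotype mean, 11 of the 19 probe sets were highest in Aop RNAi and 10 of 19 lowest in the control, the genotypes that hold the arrays named above. The same shares over all probe sets were not counted, so these counts do not set the channels apart from other genes.

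Whether TFAM o/e acted on the channels differently in the presence of a hairpin was tested as an interaction. In limma, 0 of the 19 probe sets passed for Pnt RNAi (0.0266% of all probe sets) and 0 of 19 for Aop RNAi (0.0533%). At an unadjusted p under 0.05, 0 of 19 passed for Pnt RNAi (4.42%) and 2 of 19 for Aop RNAi (3.99%). Shal had an interaction of 0.97 (SE 0.33, unadjusted p = 0.00936, limma adjusted p = 1): TFAM o/e went with a signal lower by 0.52 without a hairpin and with one higher by 0.45 in the Aop RNAi background. Shaw 1632961_at had an interaction of -1.88 (SE 0.72, unadjusted p = 0.0169, limma adjusted p = 1), which was -0.31 with signals under log2 5 set to log2 5.

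The averages over backgrounds use more arrays. For TFAM o/e over its 3 backgrounds 0 of 19 channel probe sets passed in limma (0.543% of all probe sets), with a channel median of -0.09, which was 0.05 without the second Aop RNAi array, 0.03 without the second control array and -0.16 without the third. For Pnt RNAi over its 2 backgrounds the count was 0 of 19 (0.304%) with a median of 0.19, and for Aop RNAi it was 0 of 19 (0.197%) with a median of 0.19. With an unadjusted p under 0.05, each of these also gave 0 of 19 (7.64%, 6.78% and 4.87%). Without the third control array the medians of Pnt RNAi and Aop RNAi were -0.032 and -0.025.

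**Figure D4:**
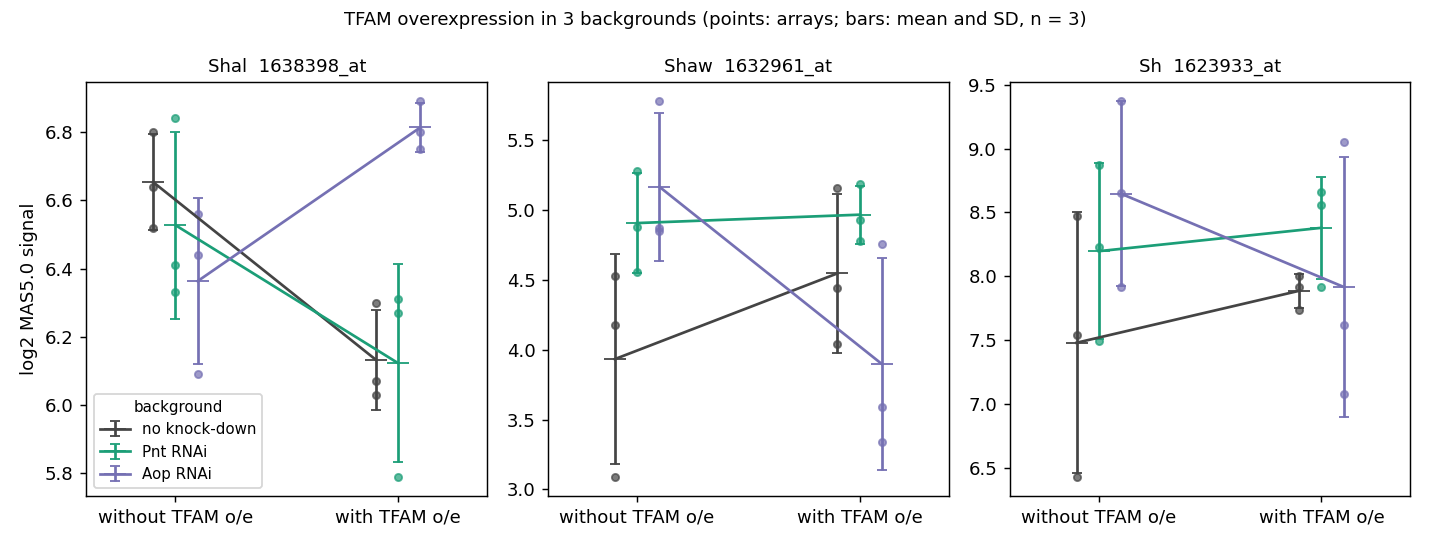
Log2 MAS5.0 signal (vertical axes, each with its own range) of Shal 1638398_at, Shaw 1632961_at and Sh 1623933_at without and with TFAM o/e, for the backgrounds with no hairpin (grey), Pnt RNAi (green) and Aop RNAi (purple); points are arrays, bars the mean and SD of 3 arrays, and lines join the means. The Shal line of the Aop RNAi background runs up (6.36 to 6.81) where the other lines run down, and the Shaw and Sh lines of that background run down, with wide bars.

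Channels work with partner proteins, relatives and RNA-binding factors, and 54 further probe sets of 34 such genes were examined. In limma, 0 of the 54 passed an adjusted p of 0.05 in any of the 9 comparisons, where 0.0959% to 0.325% of all probe sets passed, so that a count of 0 does not set them apart. Of the partners, tipE (auxiliary subunit of the para channel) had log2 signals from 9.47 ± 0.26 in TFAM o/e to 9.98 ± 0.06 in Pnt RNAi (SD, n = 3 each). The brightest probe set of Hk, the beta subunit of the Sh channel, ran from 6.78 ± 0.20 in TFAM o/e to 7.34 ± 0.47 in Aop RNAi, and the genotype means of its other 2 probe sets ran from 5.13 to 5.99 and from 5.38 to 5.94. The brightest probe set of qvr (quiver, a regulator of Sh) ran from 9.03 ± 0.40 in TFAM o/e, Pnt RNAi to 9.17 ± 0.25 in TFAM o/e. That of Ca-beta, the beta subunit of calcium channels, ran from 5.32 ± 1.12 in the control to 6.01 ± 0.38 in TFAM o/e.

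Some of the 54 probe sets passed an unadjusted p under 0.05 with 1.5-fold. Against control the counts were 2 in TFAM o/e (4.1% of all probe sets), 3 in Pnt RNAi (4.93%), 3 in Aop RNAi (4.43%), 2 in TFAM o/e, Pnt RNAi (5.68%) and 4 in TFAM o/e, Aop RNAi (4.49%). They were 2 when Pnt RNAi was added to TFAM o/e (3.75%) and 0 when Aop RNAi was added (2.77%). When TFAM o/e was added they were 0 in Pnt RNAi (3.85%) and 1 in Aop RNAi (3.39%). Counts of this size out of 54 are near those shares. Irk2, an inwardly rectifying potassium channel, had signals of 7.96, 7.90 and 8.48 in the control, 7.20, 7.42 and 7.49 in Pnt RNAi, 7.44, 7.53 and 7.46 in Aop RNAi, 7.70, 7.57 and 6.98 in TFAM o/e, Pnt RNAi and 7.22, 7.16 and 7.43 in TFAM o/e, Aop RNAi. All arrays with a hairpin lay below all control arrays, and TFAM o/e gave 7.94, 7.88 and 7.72. Of all probe sets, 6.97% lay wholly below the control in Pnt RNAi and 4.38% in Aop RNAi. In TFAM o/e, Pnt RNAi 6.72% did so and in TFAM o/e, Aop RNAi 4.91%. The share below it in all of these genotypes was not counted. Irk2 was named for its unadjusted p in these data, and its comparisons share the control arrays. The log2 fold change of Irk2 against control was -0.74 in Pnt RNAi, -0.64 in Aop RNAi, -0.70 in TFAM o/e, Pnt RNAi and -0.84 in TFAM o/e, Aop RNAi (SE 0.20, limma adjusted p = 0.246, 0.513, 0.257 and 0.154). Without the third control array these were -0.56, -0.45, -0.51 and -0.66.

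The unc80 gene encodes a subunit of the sodium leak channel complex that holds the resting potential of neurons. Its signals were 7.49, 7.78 and 8.36 in the control, 7.24, 7.22 and 6.97 in TFAM o/e, 7.37, 7.66 and 7.63 in Aop RNAi and 6.59, 6.85 and 7.30 in TFAM o/e, Aop RNAi. In both pairs the arrays with TFAM o/e lay below those without it. Of all probe sets, 5.49% did so in TFAM o/e against control and 4.62% in TFAM o/e, Aop RNAi against Aop RNAi, and unc80 was named for its unadjusted p. The log2 fold change of unc80 was -0.73 in TFAM o/e against control (SE 0.24, limma adjusted p = 0.572; -0.49 without the third control array), -0.96 in TFAM o/e, Aop RNAi against control (adjusted p = 0.167) and -0.64 in TFAM o/e, Aop RNAi against Aop RNAi (adjusted p = 0.846). In TFAM o/e, Pnt RNAi unc80 had a mean of 7.32 ± 0.32 against 7.59 ± 0.10 in Pnt RNAi (SD, n = 3 each).

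The remaining pairs past the unadjusted p include values set by 1 array or by dim signals. A second qvr probe set, 1627019_s_at, had log2 fold changes of 2.15 in TFAM o/e and 2.17 in TFAM o/e, Aop RNAi against control, with control signals of 5.87, 6.69 and 0.63, and 0.27 and 0.29 without the third control array. Adar, which edits channel mRNAs, had 0.85 in Aop RNAi against control and 0.29 without that array. The dim probe sets SK 1635657_s_at (2.32 in Aop RNAi), SLO2 1626648_at (-2.04 in Pnt RNAi) and Ca-beta 1640620_at (-1.67 in Pnt RNAi) had 0 when signals under log2 5 were set to log2 5. Irk1 1627795_at had -0.70 in TFAM o/e, Pnt RNAi against control and -0.80 against TFAM o/e (limma adjusted p = 0.577 and 0.928). The other Irk1 probe set, 1626256_at, passed in none of the comparisons of 2 genotypes. Teh3, a relative of tipE, had -0.92 in TFAM o/e, Aop RNAi against control (-0.51 with the same floor), and mle, an RNA helicase needed for correct para splicing, had 0.59 in TFAM o/e, Pnt RNAi against TFAM o/e.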

How the data were processed

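Per the labels, RNA of each genotype was prepared in triplicate from 20 larvae each, and 10 ng were labelled with the Nugen Ovation V2 protocol. Whether the triplicates are separate crosses is not stated, so p-values measure the spread between these preparations, which may be partly technical. The authors made the deposited log2 signals with the MAS5.0 algorithm in the Transcriptome Analysis Console; versions are not given in the sources used here. They were used as deposited, with no further scaling or filter. MAS5.0 scales each array and leaves low signals noisy. Precision is limited by the number of arrays.

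The table holds 18952 probe sets, and 18769 were tested after removal of 183 controls. The platform annotation gives 13647 of them 1 gene symbol, 402 several and 4720 none; for 13544 the current symbol was found by Entrez identifier. The probe set of pnt is unnamed there and was named from the tables of the paper. No column of sample values was unused (0). Of the genes listed for comparison, KCNQ, CG12455 and nos had no probe set with a single symbol, nor had the markers Syt1, Eaat1, Mhc, Act57B, wupA, Lsp1alpha, Lsp1beta, Lsp1gamma, phm and loopin-1.

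One linear model held the 6 genotypes and 18 arrays (limma 3.58.1, R 4.3.3; intensity trend, Benjamini-Hochberg over all probe sets, per comparison). It gave 14 contrasts and an F-test and was checked on simulated data. The study's methods name an unpaired analysis of variance with Tukey bi-weight means; it was run as an alternative. Named are all channel probe sets (the brightest of each gene by genotype), those past an unadjusted p of 0.05 and 1.5-fold by array, other channel, partner and regulator genes past those thresholds, and tipE, Hk, qvr and Ca-beta. For likeness, the 3 probe sets with the highest Pearson r were taken. The genes and lists were chosen with earlier results of these data known. As alternatives, arrays were quantile normalized or centred on their medians, probe sets with a mean under log2 6 were dropped, signals under 32 (log2 5) were raised to 32, the trend was left off, the fit was limited to the genotypes compared, replicate numbers served as a block, and each array was left out; leaving out both arrays that stand apart and the 3′ minus 5′ covariate were added after seeing the data. Python 3.11.15 and matplotlib 3.10.9 made the plots.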

Additional observations from a re-analysis of the deposited data

How the results depend on the processing

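The count of channel probe sets past an adjusted p of 0.05 stayed at 0 in each of the 14 contrasts and the F-test under all 28 alternatives run, 18 of which left out 1 array. Few probe sets of any kind passed under them. In TFAM o/e against control the alternatives called between 0 (methods' test) and 45 (3′ minus 5′ covariate) of all probe sets. A steady count of 0 therefore does not set the channels apart from other genes. The smallest adjusted p of a channel probe set in any of them was 0.305, without the second control array. Median centring moved the median of all probe sets by 0.10 in TFAM o/e against control and by 0.11 in TFAM o/e, Aop RNAi against Aop RNAi, and by less elsewhere. The methods' test was run on the 9 comparisons of 2 genotypes only.

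The replicate numbers of the labels were used as a block, and the count was 0 in every contrast under the replicate block too. Of all probe sets, 44 passed under it in TFAM o/e against control, 75 in Pnt RNAi against control and 48 in Aop RNAi against control. Over 8582 probe sets, deviations of same-numbered arrays from their genotype means correlated above 0.1 for all 3 numbers in 2 comparisons, TFAM o/e, Pnt RNAi against control (0.171, 0.268, 0.233) and the same genotype against TFAM o/e (0.335, 0.177, 0.429). Single values over the 9 comparisons ran from -0.139 (number 2 of TFAM o/e and control) to 0.469 (number 2 of Aop RNAi and control). Number 2 of Pnt RNAi and control gave 0.428. Nothing in the labels says that a number marks a shared batch.

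The count past an unadjusted p of 0.05 and 1.5-fold was less steady. In Aop RNAi against control it was 2, and 6 without the second control array, 5 without the first Aop RNAi array, 1 without the first control or the third Aop RNAi array, and 0 without the third control or the second Aop RNAi array. In TFAM o/e, Aop RNAi against Aop RNAi it was 1, and 4 without the third and 0 without the second array of TFAM o/e, Aop RNAi. Over the arrays left out it lay between 0 and 3 in each of the other 7 comparisons of 2 genotypes. The share of all probe sets past this rule was not counted with arrays left out. Whether that share moved along with the channel counts is therefore not known. Direction was followed for the log2 fold changes of Shal, Shaw 1632961_at and Sh 1623933_at past an unadjusted limma p of 0.05, interactions included. It was kept in 219 of 219 cases. These were picked by that p in the same data, so a kept direction is no separate support for them. Over the arrays left out, Sh 1623933_at ran from 0.64 to 1.66 and Shaw 1632961_at from 0.81 to 1.53 in Aop RNAi against control. Signals near log2 5 limit Shab, slo, eag and the dim probe sets of Sh, Shaw and cac.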
